A study of Mus musculus with 15 samples.

Results

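The piRNA cluster chr17_66147660_66240013 is a stretch of mouse chromosome 17 from 66147660 to 66240013 (mm10). Its members were all loci of the deposited count tables that overlapped this stretch, on either strand and at any length, where a locus is 1 genomic interval with its strand and its read count. There were 192545 such loci among the 8128951 of the whole series. The cluster was chosen from measured values, because abundant loci that were higher in Ψ-IP and lower with CMC lie in it. The values of those 2 contrasts are therefore given as a description, without p-values. Loci called in them are those past a fixed threshold of the fit, and the calls support nothing about the cluster. The flow-through libraries played no part in the choice, and their comparison with input was tested, although the input libraries had been used.

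The libraries held small RNAs of 17 to 40 nt cut from a gel of testis RNA from male C57Bl/6 mice at 8 weeks of age, with no allele or other agent named in the labels. In 1 experiment, RNA was treated with CMC, a carbodiimide that leaves a bulky adduct on pseudouridine (Ψ) which stops reverse transcriptase, or was mock treated (3 libraries each). In the other, RNA was incubated with an antibody against Ψ, and libraries were made from the input, from the bound RNA (Ψ-IP) and from the flow-through of the IP (3 libraries each). The experiments used different library kits, so levels were compared only within an experiment. Nothing in the labels says that the replicates came from separate animals, and the spread between them may be technical.

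PIWI-interacting RNAs (piRNAs) are germline small RNAs that guide PIWI proteins to complementary transcripts, and in the adult testis most of them are made from long precursors transcribed from a limited set of genomic clusters. Many clusters are transcribed outwards in both directions from a shared promoter region. The precursors are cut into fragments that mostly start with uridine, are loaded on the PIWI proteins MIWI and MILI, and are trimmed at the 3′ end to the length that the protein protects. Reads from 1 precursor site therefore share a 5′ end and differ at the 3′ end. Ψ is an isomer of uridine, so only the positions read as T can carry it, and no site was mapped in these data.

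Sequence could be read for the loci that lie inside annotated transcripts or promoter windows (GENCODE vM21 and RefSeq, GRCm38), which were 29507 loci with 14.7% of the cluster's mean CPM. The following loci are shown because they were among the most abundant of those and differed in their response. Each is printed 5′ to 3′ with T in capitals, the only bases at which a Ψ could have been read. The first and second were higher in flow-through than in input. The second was also called lower in Ψ-IP than in input, with a log2 fold change of -0.83. That call was lost without input replicate 2 or Ψ-IP replicate 1. The third was higher in Ψ-IP than in input, and the last passed no threshold in any comparison.
chr17:66227704-66227733, plus strand: TcaTcTcTcaTgTcccTgTagTcaggcTgc
chr17:66193625-66193655, minus strand: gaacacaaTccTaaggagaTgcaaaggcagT
chr17:66193986-66194015, minus strand: TTTgaTgTggacTTgccTcacccccTTTgT
chr17:66195220-66195248, minus strand: TagcacaTgacgTccaaagaaTgaagagg

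The first lies antisense in the pseudogene CT025671.2 and the other 3 lie antisense in the long noncoding RNA gene CT025671.4. The third holds 12 T (40.0% of its bases) and the second and last hold 4 each. The second begins with G in place of the usual T. The sequences at the leading 5′ ends described below, 66213513 and 66211442, were not used here.

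Library totals ran from 24154811 to 58399368 counts in the CMC experiment and from 11575705 to 25063656 in the IP experiment. Counts in the cluster ran from 468148 to 1106586 and from 242144 to 563332 per library. The cluster ranked 17 of the 647 listed clusters by mean level. A locus was tested when it had more than 20 counts in total over the libraries of its experiment, which left 15570 of 135003 loci in the IP experiment and 12861 of 112855 in the CMC experiment. Levels below are CPM (counts scaled to library size) on edgeR's TMM scale, computed over the tested loci of the whole genome within each experiment. A locus was called at an edgeR quasi-likelihood adjusted p below 0.01 over all tested loci.

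The reads had the features by which piRNAs are known. Lengths of 29 to 31 nt made up 66.25% ± 0.426 of the cluster's reads in input and 58.0% ± 1.40 in mock (SD, n = 3 libraries, here and below), and 30 nt was the most frequent length in every input, Ψ-IP and flow-through library. Among the loci of 24 to 33 nt with sequence, 91.9% ± 0.0577 of mock reads and 84.3% ± 2.02 of input reads began with T. Mean read length was 29.22 ± 0.0799 nt in input and 28.39 ± 0.0965 nt in mock. No mock or CMC library held reads of 34 nt or more, in the cluster or over all loci, while the IP libraries did. Lengths are therefore not directly comparable between the experiments.

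**Figure D1:**
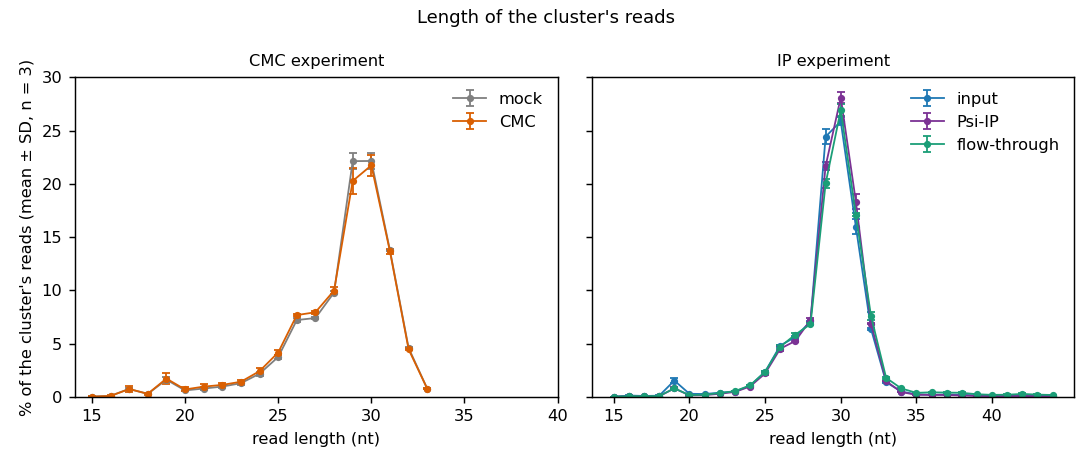
Length of the reads in the cluster. Points show the mean and bars the SD over 3 libraries of the percent of the cluster's reads (y axis) at each length in nt (x axis), for mock and CMC on the left and for input, Ψ-IP and flow-through on the right. The 29 to 31 nt peak holds 66.25% of input reads and 58.0% of mock reads.

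The cluster had the layout of a divergent pair of precursors. A single point at 66206673 separated minus-strand reads on its left from plus-strand reads on its right for 97.25% of all reads (66206699 in the IP and 66206670 in the CMC experiment alone). The arm on the plus strand held 61.3% ± 0.403 of input reads, 61.5% ± 0.800 of Ψ-IP reads and 57.7% ± 0.523 of flow-through reads. The arm on the minus strand held 35.8% ± 0.586, 36.5% ± 0.833 and 39.0% ± 0.334. The flow-through libraries thus had the lower plus-arm share and the higher minus-arm share of the IP experiment. In the CMC experiment the plus arm held 55.4% ± 0.474 of mock reads and 54.1% ± 0.304 of CMC reads. These shares include reads of paired 5′ ends, described below, that could not be assigned to 1 arm.

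Output of the plus arm was concentrated near the divergence point. On the minus strand, the 1 kb windows closest to the point, from 66197660 to 66206659, averaged 19.57 to 139.6 CPM (both strands, all groups), and the main block lay farther out, in the windows from 66189660 to 66197659, at 355.9 to 1270 CPM. The most abundant 1 kb window began at 66210660 and held 16.3% ± 0.577 of mock reads, 9.79% ± 0.452 of input reads, 13.4% ± 0.721 of Ψ-IP reads and 5.76% ± 0.571 of flow-through reads. The window from 66212660 held 3.70% ± 0.225, 14% ± 1.1, 7.13% ± 0.282 and 10.6% ± 0.346. It was the higher of the 2 in input and flow-through, and the lower in mock and Ψ-IP. The window from 66152660 lay well to the left of the point, apart from the rest of the arm, and held 5.32% ± 0.175 of input reads, of which 93.8% were on the minus strand. It lies in a segment, described below, with 5′ ends whose counts match those of a segment right of the point. Such paired ends held 73.3% of that segment's reads, which could not be assigned to 1 segment. No locus was listed in the 5000 bases beyond either border of the cluster.

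**Figure D2:**
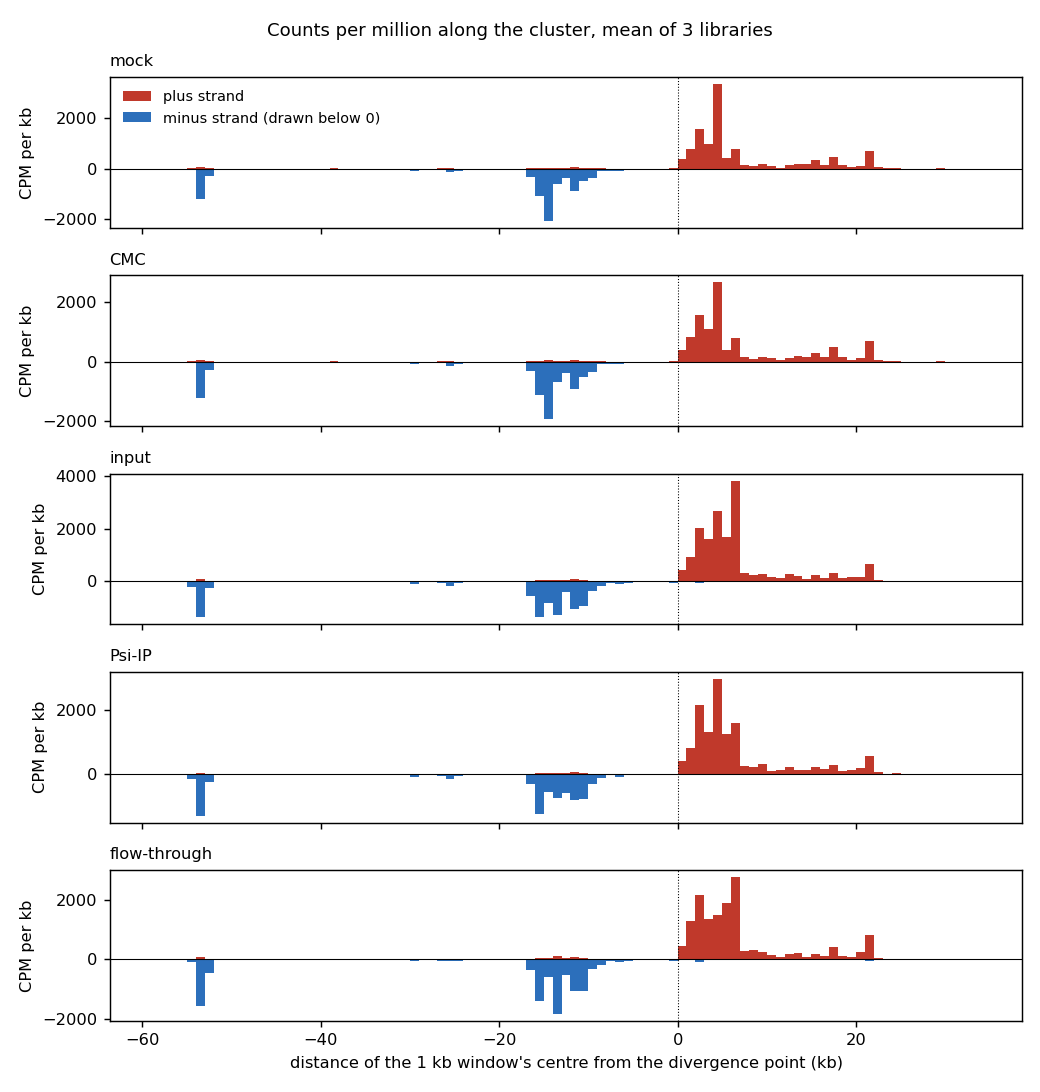
Reads along the cluster. Bars show the mean CPM of 3 libraries in 1 kb windows (y axis), plus strand above 0 and minus strand below, against the distance of the window from the divergence point in kb (x axis), with 1 panel per group and its own scale. Plus-strand reads lie to the right of the point and minus-strand reads to its left, with a separate minus-strand block far to the left. Reads of that block at mirrored 5′ ends could not be assigned to 1 side.

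The GENCODE genes of the interval spanned a minor part of this output, and RefSeq genes were not tallied. The long noncoding RNA gene CT025671.4 (66193352 to 66199820, plus strand) spanned 14.5% of the cluster's mean CPM, at a mean of 3174 CPM on the minus strand against 189.8 CPM on the plus strand, so most of them were antisense to it. The processed pseudogene CT025671.2 (66227249 to 66228027, minus strand) spanned 2.71%, at 616.9 CPM on the plus strand and 12.65 CPM on the minus strand. The helicase gene Ddx11, whose 3′ part reaches into the left border, spanned 0.0656%. Annotated repeats held 6.84% ± 0.118 of the cluster's input reads, against 15.3% ± 0.052 over all loci.

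A few precursor sites produced much of the output. The 10 most abundant 5′ ends of each library held 25.8% ± 0.306 of the cluster's mock reads, 23.8% ± 1.33 of CMC reads, 19.6% ± 1.05 of input reads, 18.6% ± 0.493 of Ψ-IP reads and 17.2% ± 0.833 of flow-through reads. The single most abundant locus held 7.96% ± 0.941 of the input reads in the cluster. In the most abundant and second most abundant clusters, on chromosomes 17 and 9, and in a chromosome 5 cluster of rank 8, that share was 1.81% ± 0.378, 1.35% ± 0.0995 and 0.853% ± 0.05. In mock it was 6.52% ± 0.434 in this cluster and 2.28% ± 0.145, 1.575% ± 0.0745 and 3.77% ± 0.145 in the other 3. These differences were not tested.

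The 5′ end at 66213513 on the plus strand, 6840 bases from the divergence point, led the input libraries. Summed over lengths, it had 2762, 2195 and 2833 CPM in input, 687.4, 670.9 and 834.1 in Ψ-IP, and 1608, 1692 and 1759 in flow-through. Every Ψ-IP and every flow-through library lay below every input library. It had 360.5, 319.5 and 295.1 CPM in mock and 425, 441.8 and 307.3 in CMC, where the groups overlapped.

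The 5′ end at 66211442, 4769 bases from the point, led the mock libraries. It had 1934, 2134 and 1963 CPM in mock and 1497, 1241 and 1318 in CMC, so all CMC libraries were lower. It had 486.4, 522.7 and 464.5 CPM in input, 1208, 1109 and 1106 in Ψ-IP, and 98.57, 184.5 and 177.3 in flow-through. The order Ψ-IP, input, flow-through held for every library, and the means stood at 2.32 and 0.312 times the input mean.

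The next ends behaved differently from one another. The end at 66211896 stood at 0.173 times its input mean in Ψ-IP (385.2 to 541.4 CPM in input and 62.98 to 93.29 in Ψ-IP), while its flow-through libraries, at 428.0 to 524.6 CPM, overlapped input. The end at 66209673 had 105.9 to 116.7 CPM in input, 51.07 to 59.86 in Ψ-IP and 129.6 to 170.1 in flow-through, with no overlap between the groups. The end at 66208767 had 297.8 to 377.0 CPM in input and 430.2 to 627.6 in Ψ-IP, and its flow-through range of 323.5 to 515.8 overlapped both. The end at 66211297 had 218.6 to 268.7 CPM in input, 270.7 to 361.1 in Ψ-IP and 239.5 to 360.9 in flow-through, and overlapped fully between mock and CMC.

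**Figure D3:**
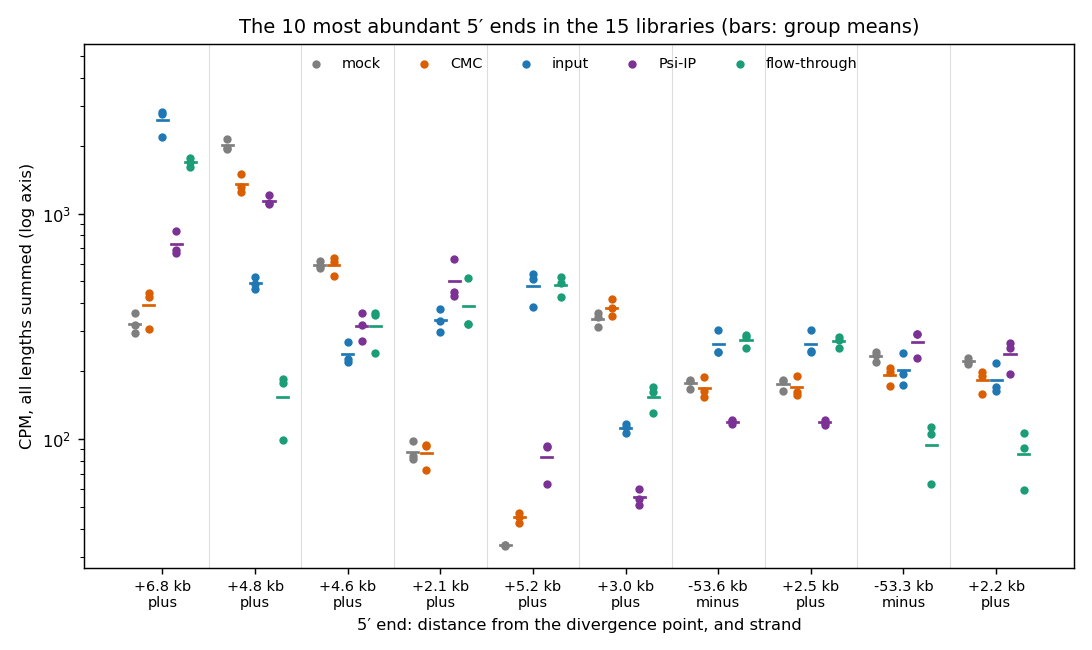
The 10 most abundant 5′ ends. Points show the CPM of each library with all lengths summed (y axis, log scale), bars the group means, and the x axis names each end by its distance in kb from the divergence point and its strand. The end at +4.8 kb is highest in mock at a mean of 2010 CPM and the end at +6.8 kb is highest in input at a mean of 2597 CPM.

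In Ψ-IP against input, 660 of the 15570 tested loci of the cluster were called higher (4.24%, against 5.45% of all tested loci) and 1630 were called lower (10.5%, against 10.7%). The median log2 fold change was -0.18 in the cluster and -0.10 over all loci. With library totals in place of TMM, the cluster's log2 fold changes were higher by a median of 0.13. The loci called lower carried 35.8% of the cluster's input CPM and those called higher carried 9.58%. Without input replicate 1 the counts were 302 and 900 (2.53% and 6.17% of all loci), and without input replicate 3 they were 301 and 1034 (2.52% and 7.1%). Among the 503 loci that averaged 100 counts or more per library, 124 were called higher and 172 lower, against 25.2% and 29% of all such loci.

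The largest rise by the rule for named loci was at 66210028 to 66210057 on the plus strand, with 43, 37 and 28 counts in input and 140, 146 and 256 in Ψ-IP (log2 fold change 2.56, SE 0.28). A 19 nt locus on the minus strand, 66209385 to 66209403, fell furthest, with 256, 139 and 233 counts in input and 14, 14 and 11 in Ψ-IP (log2 fold change -3.68, SE 0.31). The most abundant of the falling loci was the 29 nt form at 66213513, with 2325, 1836 and 2362 CPM in input and 546.7, 533.9 and 660.2 in Ψ-IP (log2 fold change -1.86, SE 0.18). The 30 nt form at 66211896 fell by more, with a log2 fold change of -2.89 (SE 0.21).

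The summed count of the cluster was 2.24% ± 0.018 of the library in input and 2.09% ± 0.030 in Ψ-IP. In the fit over 547 cluster totals its log2 fold change was -0.09 (SE 0.021), and 9.87% of those totals were called higher and 10.4% lower. The cluster's own total was among those called lower. On the TMM scale of the locus fit it had 26665 to 27665 CPM in input and 21398 to 23578 in Ψ-IP. Loci of 23 nt or less had the lowest median log2 fold change of the length classes, -0.87 over 621 loci, against -0.34 over all tested loci of that length. Of these 621 loci, 118 were called lower (19%, against 11.6% of all such loci).

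In CMC against mock, 92 of 12861 tested loci were called higher (0.715%, against 1.07% of all loci) and 54 lower (0.42%, against 0.654%). The 54 lower loci came from 27 5′ ends and carried 11% of the cluster's mock CPM, while the 92 higher loci carried 1.01%. With the replicate number as a block, 105 loci were called higher (1.24% of all loci) and 81 lower (1.03%). Without mock replicate 2 the counts were 47 and 25 (0.582% and 0.227%). Of the 948 loci at that level, 27 were called higher and 29 lower, against 2.45% and 5% of all such loci. The cluster total was 1.89% ± 0.0062 of the library in mock and 1.92% ± 0.021 in CMC, with a log2 fold change of 0.03 (SE 0.017) in the fit over cluster totals. On the TMM scale of the locus fit it was lower with CMC, at 19910 ± 421 CPM against 20550 ± 112 in mock. In the fit over totals, 1.08% of 646 totals were called in each direction. With the replicate block 28 totals were called higher and 20 lower, and that of this cluster was called in neither fit.

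By length, the called shares of the cluster lay below those of all loci of the same length, in which the same lengths led each direction. Among the 5098 tested loci of 24 to 28 nt, 62 were called higher (1.22%, against 1.75% of all loci of that length) and 15 lower (0.294%, against 0.375%). Among the 5090 of 29 to 31 nt, 14 were called higher (0.275%, against 0.486%) and 36 lower (0.707%, against 1.05%). The largest rise was the 26 nt form at 66213513, with 366, 433 and 306 counts in mock and 1134, 682 and 516 in CMC (log2 fold change 1.41, SE 0.14). The largest fall was at 66213637 to 66213667 on the plus strand, with 203, 382 and 232 counts in mock and 99, 32 and 42 in CMC (log2 fold change -1.90, SE 0.18).

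Loci called higher in Ψ-IP and lower with CMC, the pattern for which the cluster was chosen, numbered 16 of 6748 tested in both experiments (0.298% of all such loci had both calls). They shared 10 5′ ends and are therefore not 16 independent sites. With the replicate block in the CMC comparison the number was 21. Without mock replicate 2, CMC replicate 2 or CMC replicate 1 it was 9, 10 or 27, and without any other library it was 11 to 16. The share of all loci with both calls was computed for the main fits only. The reverse pattern, lower in Ψ-IP and higher with CMC, was found at 13 loci, and 3 were higher and 2 lower in both. The shares of all loci with these other patterns were not computed, so these counts say nothing particular about the cluster. Of the 16 loci, 14 lay on the plus strand between 66211038 and 66213672, a stretch of 2635 bases noticed after the values were seen. This stretch also held 34 of the 54 loci lower with CMC, from 1191 tested there (2.85%, against 0.654% of all loci). It held 17 loci higher with CMC (1.43%, against 1.07%). The stretch was drawn around loci already called lower with CMC, so its share of lower calls follows in part from that choice. Of its 2010 loci tested in Ψ-IP, 94 were higher (4.68%, against 5.45%) and 267 lower (13.3%, against 10.7%). In flow-through, 119 of them rose (5.92%, against 6.45%) and 209 fell (10.4%, against 9.73%).

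The 29 nt form at 66211442 was the most abundant of the 16. It had 1289, 1439 and 1290 CPM in mock and 967.8, 783.8 and 823.1 in CMC, with a log2 fold change of -0.64 (SE 0.11). It had 351.6, 383.4 and 329.3 CPM in input and 886.8, 833.4 and 830.6 in Ψ-IP (log2 fold change 1.30, SE 0.18). No library of 1 group overlapped the other in either contrast.

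Forms of other lengths at the same 5′ end did not all follow. The forms of 28, 30 and 31 nt had log2 fold changes of 1.15, 1.38 and 1.35 in Ψ-IP and were called higher. None of the shorter forms was called there. Those of 23, 24, 25, 26 and 27 nt had log2 fold changes of 0.16, 0.05, 0.91, 0.52 and 0.54, and those of 21 and 22 nt, with 0 to 15 counts per library, had -2.24 and -1.64. With CMC, the forms of 25, 26, 27, 28 and 31 nt had log2 fold changes of -0.59, -0.55, -0.56, -0.65 and -0.81, and all of them were called lower. The forms of 21 to 24 nt had log2 fold changes below 0 and were not called. The 30 nt form had 117.0, 119.2 and 105.3 CPM in mock and 135.0, 125.5 and 121.0 in CMC, a log2 fold change of 0.16 (SE 0.11), and was not called. It differs from the 29 nt form by 1 base at the 3′ end.

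At 66213513 the Ψ-IP fold changes were below 0 at each length from 26 to 32 nt, from -1.86 at 29 nt to -0.50 at 32 nt. With CMC, the forms of 26 and 28 nt were called higher, at 1.41 and 0.60, and the form of 29 nt had 0.16 and was not called.

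**Figure D4:**
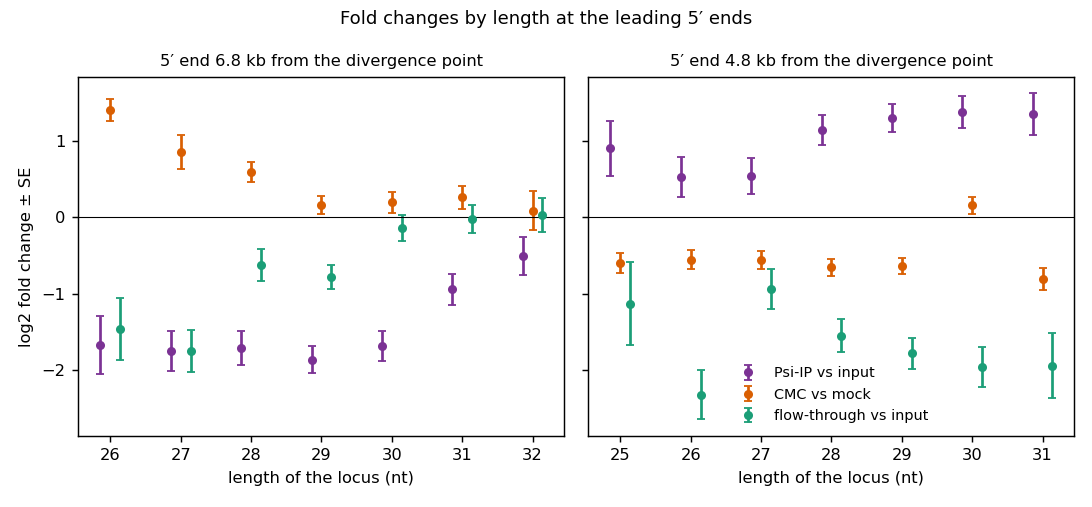
Fold changes by length at the 5′ ends 6.8 kb (left) and 4.8 kb (right) from the divergence point. Points show the log2 fold change and bars the standard error (y axis) of each locus against its length in nt (x axis), for Ψ-IP against input, CMC against mock and flow-through against input. On the right, the 30 nt form lies at 0.16 with CMC while the 29 nt form lies at -0.64.

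The other loci with both calls were less abundant. A set of staggered ends at 66213638, 66213641, 66213642 and 66213643 contributed 7 of the 16 loci, of which the 30 nt locus from 66213642 had 253, 492 and 336 counts in mock and 199, 89 and 76 in CMC. In the IP experiment it had 63, 69 and 34 counts in input and 122, 142 and 213 in Ψ-IP. The locus 66211038 to 66211068 had 61.44, 77.2 and 62.26 CPM in input and 90.86, 148.5 and 108.6 in Ψ-IP. Its call in Ψ-IP was lost without input replicate 1 or 3 or Ψ-IP replicate 2 (log2 fold changes of 0.77, 0.74 and 0.58), and its call with CMC was lost without mock replicate 1 or 2 or CMC replicate 2 or 3 (-0.56, -0.53, -0.66 and -0.48) or on library totals (-0.54).

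The flow-through libraries gave the comparison that had not been used to choose the cluster. Of 15570 tested loci, 1034 rose (6.64%, against 6.45% of all loci) and 1219 fell (7.83%, against 9.73%). The median log2 fold change was -0.07 in the cluster and -0.24 over all loci. With library totals in place of TMM, the cluster's log2 fold changes were higher by a median of 0.20, and there were 1310 rises and 946 falls (8.19% and 7.58% of all loci). Without input replicates 1, 2 and 3 in turn there were 546, 612 and 541 rises (3.53%, 3.96% and 3.45% of all loci) and 619, 718 and 610 falls (5.1%, 5.78% and 5.03%). Among the 570 loci that averaged 100 counts or more per library, 144 rose and 154 fell, against 23.6% and 33.9% of all such loci.

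The cluster total rose in flow-through on 1 scale and not on the other. It was 2.40% ± 0.046 of the library in flow-through and 2.24% ± 0.018 in input, with no overlap (2.365% to 2.452% against 2.216% to 2.248%). In the fit over 547 cluster totals the log2 fold change was 0.13 (SE 0.024, edgeR adjusted p = 4.56e-04), and 18.5% of cluster totals rose and 18.3% fell. On the TMM scale of the locus fit, which all CPM here use, the mean level was 26050 ± 766 CPM in flow-through and 27260 ± 526 in input. The rise is therefore a rise relative to other clusters and to the library total.

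The loci with both calls were split in flow-through. The 29 nt form at 66211442 had 70.43, 128.3 and 121.3 CPM in flow-through and fell (log2 fold change -1.78, SE 0.20, edgeR adjusted p = 2.61e-07). The locus 66211038 to 66211068 had 3.367, 11.16 and 8.064 CPM and fell by more (log2 fold change -3.21, SE 0.28, edgeR adjusted p = 9.97e-09). Of the 16 loci, 7 fell and 9 did not pass the threshold, and 5 to 9 fell with any 1 library left out. Falls made up 9.73% of all tested loci and 33.9% of those that averaged 100 counts or more. The loci that did not pass included 66212122 to 66212152, with 478, 563 and 337 counts in input and 367, 377 and 253 in flow-through.

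The 29 nt form at 66213513 was lower in both fractions than in input. It had 1244, 1310 and 1363 CPM in flow-through, with a log2 fold change of -0.78 (SE 0.16, edgeR adjusted p = 5.46e-04). That call was lost without input replicate 1 or 3 or flow-through replicate 2 (log2 fold changes of -0.72, -0.71 and -0.74). Its longer forms stayed closer to input, with log2 fold changes of -0.14 at 30 nt (SE 0.17) and -0.02 at 31 nt (SE 0.18).

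The largest rises in flow-through were at loci of low level in input. This follows in part from ranking by fold change among loci that averaged 100 counts or more. The 2 loci given next reached that average only through flow-through, so their values are a description. The locus 66190753 to 66190782 on the minus strand had 36, 44 and 31 counts in input and 833, 502 and 285 in flow-through (log2 fold change 3.72, SE 0.29). The locus 66209882 to 66209911 on the plus strand rose from 100, 98 and 59 counts to 1521, 962 and 600 (log2 fold change 3.46, SE 0.26). In Ψ-IP it had 187, 240 and 406 counts, a log2 fold change of 1.91. The 5 largest rises in flow-through were all called higher in Ψ-IP as well, with log2 fold changes of 0.97 to 2.42, and both comparisons share the same low input counts. The lowest of these, at 66190753, had 37, 39 and 128 counts in Ψ-IP, and its call there was lost in 6 of 10 alternatives. The second sequence printed above, at 66193625 to 66193655, had 100.2, 172.1 and 80.18 CPM in input and 352.7, 273.3 and 259.4 in flow-through (log2 fold change 1.30, SE 0.23, edgeR adjusted p = 1.01e-04).

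The locus with the largest fall with CMC was nearly absent from flow-through. At 66213637 to 66213667 there were 17, 10 and 10 counts in input, 9, 5 and 18 in Ψ-IP, and 0, 0 and 1 in flow-through. The fall in flow-through lost its call without input replicate 1 or 2 (log2 fold changes of -4.62 and -4.79, which depend on the prior count). These are few counts, and Ψ-IP and input overlapped.

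Long and short reads moved apart in flow-through. Reads of 34 nt or more made up 1.89% ± 0.160 of the cluster's reads in input, 1.5% ± 0.105 in Ψ-IP and 3.6% ± 0.418 in flow-through, against 1.5% ± 0.103, 1.22% ± 0.0242 and 2.22% ± 0.283 over all loci. Of the 557 tested loci of that length, 58 rose (10.4%, against 5.92% of all such loci) and 5 fell (0.898%, against 3.94%). Reads of 19 nt made up 1.52% ± 0.236 in input and 0.792% ± 0.069 in flow-through, against 0.465% ± 0.073 and 0.269% ± 0.0194 over all loci. Of the 621 loci of 23 nt or less, 29 rose (4.67%, against 5.51% of all such loci) and 87 fell (14%, against 6.78%). The share of 29 to 31 nt reads was 63.1%, 64.13% and 64.9% in flow-through and 66.31%, 66.65% and 65.8% in input. It was lower in each flow-through library, by 2.21 percentage points on average (two-sided exact permutation test over libraries, p = 0.1, the smallest this design allows). Over all loci of the genome the share was also lower, at 65.68% ± 0.713 in flow-through and 67.20% ± 0.472 in input. With each locus of the cluster counted once, whatever its reads, the share was 2.78 points higher in flow-through.

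A pair of segments on opposite sides of the divergence point held many 5′ ends with matching counts at mirrored positions. The segments ran from 66152648 to 66154324 and from 66207893 to 66209555. Of the 112 5′ ends with at least 500 counts in the left segment, 100 had a counterpart on the opposite strand of the right segment whose counts agreed in all 15 libraries within sampling noise (chi-square below the 0.001 point). The positions of each pair summed to 1 constant for 79 pairs, and to a constant 14 larger for 21. The right segment had 146 ends at that level, of which 100 were in these pairs. Paired ends held 73.3% of the reads of the left segment and 55.4% of those of the right.

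**Figure D5:**
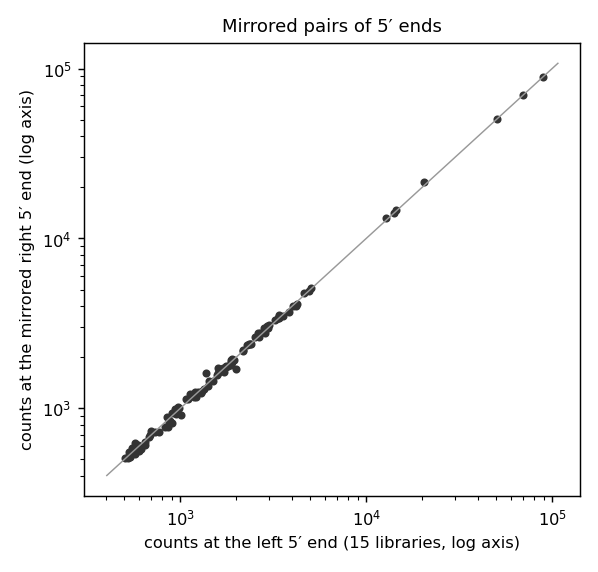
Mirrored pairs of 5′ ends. Each of the 100 points is a pair, with the counts of its left end (x axis) and right end (y axis) summed over 15 libraries on log scales, and the line marks equal counts. The ratios run from 0.856 to 1.16, and their closeness to 1 follows from the choice of pairs by matching counts.

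The most abundant pair held 88799 counts at 66152772 on the minus strand and 89517 at 66209431 on the plus strand. The pair at 66153073 and 66209130, both among the 10 leading ends, held 70027 and 69666. Paired ends held 8.46% to 8.91% of the cluster's reads in input, 8.84% to 9.6% in Ψ-IP, 12% to 12.6% in flow-through, 10.7% to 11% in mock and 11.1% to 12.5% in CMC. The flow-through range lay above the input range. The reads of a pair could not be assigned to 1 strand or segment, because how reads matching more than 1 place were counted is not given in the sources used here, and the sequence of the segments was not used here.

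The paired ends accounted for 208 of the 1034 rises and 57 of the 1219 falls in flow-through, from 1166 of the 15570 tested loci. Over all tested loci of the genome, 6.45% rose and 9.73% fell. Without them 826 loci rose and 1162 fell. The 29 nt loci 66154011 to 66154039 and 66208178 to 66208206 are such a pair. The former had 15, 7 and 29 counts in input and 340, 224 and 124 in flow-through, and the latter 25, 10 and 15 and 335, 188 and 127, and the 2 rises cannot be told apart. The 19 nt loci 66209385 to 66209403 and 66152800 to 66152818, both with large falls in Ψ-IP, are another pair.

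The ends at 66153339 (minus strand) and 66208864 (plus strand) also had counterparts elsewhere. Their 29 nt forms had counts within sampling noise of those of loci on chromosome 10 from 85750627 to 85750655 and from 86589421 to 86589449 and on chromosome 1 from 34602442 to 34602470. Of 45 named loci with at least 2000 counts, 9 matched a locus outside the cluster in this way and 10 matched a locus inside it. The end at 66153339 had 173.8, 240.6 and 194.0 CPM in input, 227.5, 291.8 and 291.9 in Ψ-IP and 63.02, 113.4 and 105.4 in flow-through. None of the forms tested at 66211442 or 66213513 had such a counterpart.

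Loci that fell in flow-through were richer in T than those that rose, among the loci of 24 to 33 nt with sequence. The median T content was 37.9% in 133 loci that fell, 21.9% in 200 that rose and 25.9% in 1817 that passed neither threshold. Over all reads of these lengths with sequence, mean T content was 23.1% ± 0.513 in flow-through (22.5% to 23.5%) and 26.6% ± 0.1 in input (26.5% to 26.7%). Loci called higher in Ψ-IP had a median of 32.2% over 98 loci, against 25.9% over 218 called lower. These loci share transcripts and 5′ ends, and T content was not tested. Over all lengths, CT025671.4 alone held 71.9% of the mean CPM with sequence on its antisense strand.

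Reads on opposite strands overlapped by 10 and by 29 bases more often than by any other length from 1 to 30. An overlap of 10 bases is known from ping-pong, the cycle in which a PIWI protein cuts a target and makes the 5′ end of a new piRNA on the other strand. The share of reads of the rarer strand that could be paired at 10 bases was 1.83% ± 0.044 in mock, 3.70% ± 0.195 in input, 2.55% ± 0.025 in Ψ-IP and 4.77% ± 0.045 in flow-through. The median over the other overlaps from 1 to 20 bases was 0.810%, 1.77%, 0.932% and 1.40%. At 29 bases the share was 1.80% ± 0.0473 in mock, 4.06% ± 0.534 in input, 1.90% ± 0.0964 in Ψ-IP and 2.24% ± 0.189 in flow-through. The 29 base overlap was above the 10 base overlap in input replicates 1 and 3 and CMC replicate 3 and below it in the other 12 libraries. The part of the mirrored segments in either overlap was not tested.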

How the data were processed

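Small RNA from mouse testis was sequenced in 15 libraries, 3 per group. Per the study's methods, the authors trimmed reads, kept reads of 14 to 44 nt, set tRNA fragments aside, aligned the rest to mm10 with Bowtie2 and intersected them with repeats and listed piRNA clusters using bedtools. The deposited values are raw counts per locus, 1 table per library. Tables were joined by locus within each experiment. edgeR 4.0.16 (R 4.3.3) fitted all loci with more than 20 counts in total (quasi-likelihood test, TMM, Benjamini-Hochberg, threshold 0.01), and the cluster's rows were read from that fit. Totals were fitted over clusters with an average of at least 100 counts. The fits were checked on simulated counts.

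The cluster, its loci and the lists were chosen with earlier results of these data known. Named loci were the 12 most abundant, the 10 most abundant with both calls, in each comparison the 5 largest rises and falls among called loci that averaged 100 counts or more and had 1 direction in all 9 library pairs, the 10 most abundant 5′ ends with their loci, 2 loci named by an earlier analysis (66211442 to 66211470 and 66213637 to 66213667), and the 5 most abundant 1 kb windows. Deviations of libraries with the same replicate number correlated at 0.124, 0.147 and 0.293 for CMC with mock. With input, they correlated at -0.033 to 0.301 for Ψ-IP and at -0.086 to 0.164 for flow-through. The same number gave the highest correlation for 2 replicates in CMC, 2 in Ψ-IP and 1 in flow-through, so pairing by number was not established. No libraries were duplicates (chi-square per degree of freedom of 1.73 to 6.07 within groups). Intervals and standard errors here cover the spread between libraries, and reads carry PCR copies.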

Additional observations from a re-analysis of the deposited data

How the results depend on the processing

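The cluster total kept its direction and its side of the threshold in all 14 alternatives of each comparison on the scale of the cluster fit, with log2 fold changes of -0.17 to -0.08 in Ψ-IP, 0.02 to 0.05 with CMC and 0.10 to 0.15 in flow-through. On the TMM scale of the locus fit, which was not among them, mean levels were 27260 CPM in input, 22390 in Ψ-IP and 26050 in flow-through, and 20550 in mock and 19910 in CMC, so the direction turned with CMC and in flow-through. Counts of called loci depended more on the processing. In Ψ-IP, 2290 loci were called, 1369 by DESeq2's Wald test and 1473 without a filter on low counts. The shares of all loci called higher and lower moved too, at 5.45% and 10.7%, 3.37% and 6.56%, and 0.35% and 1.14%. Leaving out 1 library gave 1202 to 2262 called loci in Ψ-IP, 72 to 180 with CMC (146 with all libraries) and 1151 to 2516 in flow-through (2253), and log2 fold changes of the total of -0.11 to -0.08, 0.02 to 0.03 and 0.11 to 0.15. Fewer libraries were fitted there. At the lowest and highest counts, the shares of all loci called higher and lower were 2.53% and 6.17%, and 6.09% and 10%, in Ψ-IP. They were 0.582% and 0.227%, and 1.03% and 0.959%, with CMC. In flow-through they were 3.45% and 5.03%, and 7.94% and 10%. No locus called both with all libraries and in an alternative turned its direction. The share of 29 to 31 nt reads fell by 1.73 to 2.63 percentage points with 1 library left out, but with each locus counted once, whatever its reads, it was 2.78 points higher in flow-through, where 31276 to 38596 loci were listed per library against 46253 to 58952 in input. With the replicate block, 1938 loci were called in Ψ-IP, 186 with CMC and 2155 in flow-through. The shares of all loci called higher and lower were then 4.65% and 9.26%, 1.24% and 1.03%, and 5.98% and 9.78%. The difference in the 29 to 31 nt share had an exact sign-flip p = 0.25, the smallest 3 pairs allow. In flow-through the rises were 45.9% of the calls, and 58.1% of them with library totals in place of TMM, a scaling chosen after seeing the data that moved the median log2 fold change of the cluster's loci by 0.20. Leaving out the paired 5′ ends of the mirrored segments, also chosen after seeing the data, left 2094, 140 and 1988 calls. Loci of a few counts, such as 66213637 to 66213667 in flow-through, are limited by depth.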
